A study of Mus musculus with 10 samples.

Results

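The Schlafen family of the mouse was examined in RNA-Seq of BMDMs, which are macrophages grown in culture from bone marrow. Its members were chosen by name and not by a limit on any measured value, though earlier results of these data were known. They were Slfn1, Slfn2, Slfn3, Slfn4, Slfn5, Slfn8 and Slfn9, 7 of the 55573 genes in the deposited table, and all 7 passed the filter of at least 1 CPM (read counts scaled to one common total in every library) in at least 2 libraries. The BMDMs came from WT female C57BL/6 mice, were kept in medium with M-CSF, and were treated for 4 hours. Vehicle was compared with 5 μg polyU, a synthetic uridine ssRNA complexed with the lipid DOTAP, and with PNPi+dG/rG, which was 1 μM ulodesine (an inhibitor of purine nucleoside phosphorylase) with 5 μM deoxyguanosine and 5 μM guanosine. The remaining groups received PNPi+dG/rG and polyU together, called the combination (PNPi+dG/rG+polyU), or R848 at 1 ng/mL, a synthetic small molecule. Each of the 5 groups had 2 libraries labelled as biological replicates. The labels do not say whether these came from separate mice, so the p-values measure the spread between these libraries. Vehicle is not said to have contained DOTAP, so an effect of the lipid cannot be told apart from that of polyU.

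Schlafen proteins take their name from the German word for sleeping, because the first members were found to slow the growth of T cells. All share a core that is related to nucleic acid-binding proteins, and several family members bind or cut tRNA. The long members carry a helicase-like region behind the core. Many Schlafen genes are induced by type I IFN, which macrophages secrete when TLRs detect microbial nucleic acids. TLR7 is an endosomal receptor that binds guanosine or deoxyguanosine at one site and uridine-containing ssRNA at another, and R848 occupies the nucleoside site.

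The 7 genes lay in 1 cluster on chromosome 11, at chr11:82951349-83215154 of GRCm38 (GENCODE M21), which spans 263.8 kb. From left to right the order was Slfn5, Slfn9, Slfn8, the pseudogene Slfn10-ps, Slfn2, Slfn1, Slfn4 and Slfn3, with Slfn9, Slfn8 and Slfn10-ps on the minus strand. By coding length they formed 3 sizes. Slfn1 and Slfn2 had 1014 and 1137 coding bases, Slfn4 and Slfn3 had 1809 and 1923, and Slfn5, Slfn8 and Slfn9 had 2655, 2733 and 2733. Close copies sat side by side. Slfn8 and Slfn9 were identical at 2535 aligned coding bases, 92.8% of their length, and Slfn3 and Slfn4 at 1664, or 92.0% of the shorter sequence. In the other 19 pairs this share lay between 55.1% and 74.7%.

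The upstream sequences of Slfn8 and Slfn9 are shown because these neighbouring copies were similar in sequence and went in opposite directions with R848. That of Slfn5 is shown as the only other member with a match to the same motif, and that of Slfn2 as the most abundant member, without one. Each is the 250 bases before the RefSeq start on GRCm38.p6, written 5′ to 3′ on the strand of the gene. Capitals mark a match, on either strand, to the core of the ISRE, the element bound by the IFN-activated factor ISGF3.
Slfn8: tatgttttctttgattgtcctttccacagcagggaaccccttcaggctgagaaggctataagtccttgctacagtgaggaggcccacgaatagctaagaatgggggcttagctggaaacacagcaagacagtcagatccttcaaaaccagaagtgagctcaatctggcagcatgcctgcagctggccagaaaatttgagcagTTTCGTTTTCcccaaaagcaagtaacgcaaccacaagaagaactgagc
Slfn9: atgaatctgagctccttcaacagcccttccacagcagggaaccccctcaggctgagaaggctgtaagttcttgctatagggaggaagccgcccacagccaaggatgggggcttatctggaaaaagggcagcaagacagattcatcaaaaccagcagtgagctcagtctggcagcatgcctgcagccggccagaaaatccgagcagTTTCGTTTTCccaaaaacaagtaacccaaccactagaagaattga
Slfn5: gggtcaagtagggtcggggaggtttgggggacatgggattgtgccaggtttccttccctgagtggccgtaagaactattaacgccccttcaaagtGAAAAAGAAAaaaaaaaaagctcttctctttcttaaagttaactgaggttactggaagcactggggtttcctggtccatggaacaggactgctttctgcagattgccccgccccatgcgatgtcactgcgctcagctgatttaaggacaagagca
Slfn2: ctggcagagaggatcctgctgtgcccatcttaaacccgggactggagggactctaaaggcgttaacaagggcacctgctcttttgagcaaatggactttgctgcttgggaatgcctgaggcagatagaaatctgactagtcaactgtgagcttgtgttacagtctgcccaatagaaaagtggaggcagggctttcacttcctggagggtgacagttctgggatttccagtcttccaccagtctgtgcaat
These windows were chr11:83020811-83021060 for Slfn8 and chr11:82991831-82992080 for Slfn9, both on the minus strand, and chr11:82951852-82952101 for Slfn5 and chr11:83064862-83065111 for Slfn2, both on the plus strand. The Slfn5 window lay inside the annotated gene, before a later RefSeq start than the first base of the gene.

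Of the 250 upstream bases, 208 were identical between Slfn8 and Slfn9, or 83.2%, where no other pair of members passed 56.4%. The ISRE match had the same letters, TTTCGTTTTC, in both genes. It began 48 bases before the start of Slfn8 used here and 45 bases before that of Slfn9. Slfn8 has another RefSeq start, and the same match began 136 bases before that one. In Slfn5 the letters were GAAAAAGAAA, at 155 bases before the start, inside a run of A. An ISRE match was present in 3 of the 7 members and in 3.44% of the 32851 RefSeq windows, which reach 250 bases before and 50 after the start. The NF-kB site was matched in Slfn1 and Slfn9, and in 5.8% of windows. The GAS, TTCNNNGAA, an element of genes activated by IFN-γ, was in 0 of 7 members and in 8.3% of windows. Both strands were searched, the matched NF-kB and ISRE letters did not overlap, and a match is a description of letters, not of binding.

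Depth ranged from 14128128 to 38392592 reads on genes per library, and 3 reads corresponded to 0.0781 to 0.212 CPM. Of 15 macrophage marker genes, 15 were detected at 1 CPM or more, with a summed level of 22224 to 25091 CPM in every group. The T cell markers Cd3d and Cd3e, the neutrophil markers Ly6g and Retnlg and the endothelial marker Cldn5 had 0 reads in all libraries. Other markers of these lists were detected, as 4 of 8 T cell, 5 of 10 neutrophil and 4 of 6 endothelial markers reached 1 CPM in some library. The summed level of 8 fibroblast markers was 139 to 149 CPM with R848 against 0.562 to 5.28 in the other 8 libraries, and 4 of the 8, Col1a1, Col1a2, Col3a1 and Pdgfrb, passed 5 CPM. The 8 T cell markers, mostly Cd28, were at 72.5 to 84.3 CPM with vehicle, 20.7 to 23.2 with the combination and at most 8.70 with R848. The 6 endothelial markers were at 240 to 246 CPM, 143 in both libraries and 64.5 to 69.8 in these groups. The 10 neutrophil markers were at 4.53 to 6.99 CPM with vehicle, polyU and PNPi+dG/rG, at 9.98 to 9.99 with the combination and at 23.0 to 25.2 with R848. The part of these shifts in the results below was not tested, and in bulk RNA fewer cells of a type and less RNA per cell cannot be told apart.

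Summed over the 7 members, Schlafen transcripts made up 675 and 601 CPM with vehicle and 693 and 721 with PNPi+dG/rG. They reached 1544 and 1583 CPM with polyU, 1879 and 1999.6 with R848 and 3166 and 3202 with the combination. The makeup of this sum shifted with treatment. Slfn9 provided 18.1% of it on average with vehicle, 8.28% with polyU, 3.62% with the combination and 0.608% with R848, while Slfn2 went from 34.2% to 38.9%, 47.3% and 55.8%.

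**Figure D1:**
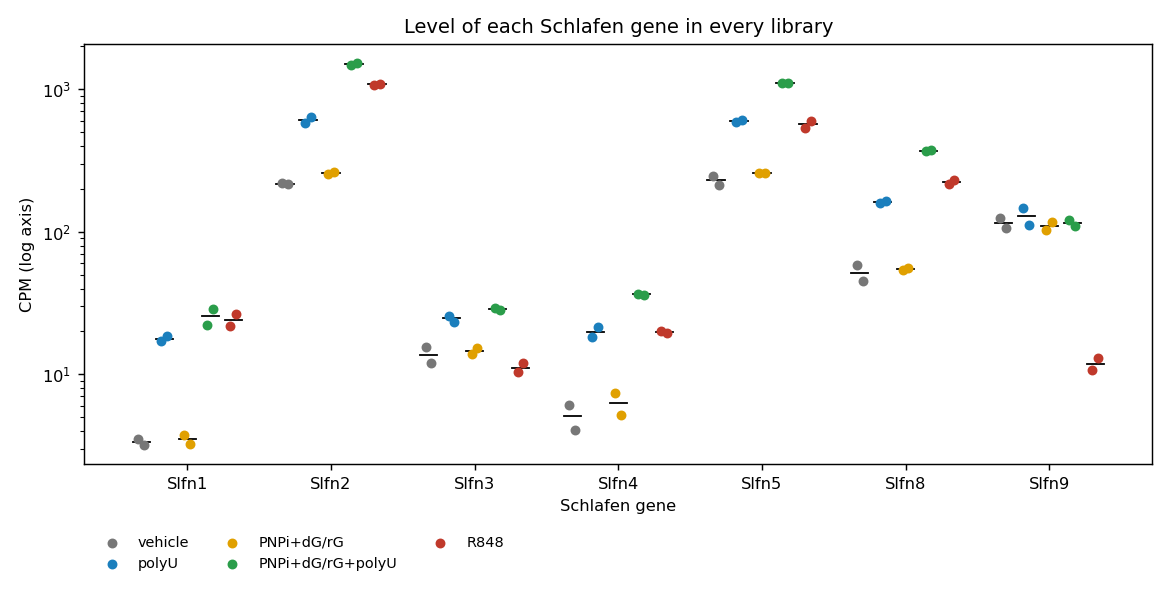
Level of each Schlafen gene in CPM, on a log axis, in the 2 libraries (points) of each of the 5 groups (colours), with the group mean as a bar. Slfn1, Slfn2, Slfn4, Slfn5 and Slfn8 stood above vehicle with polyU, the combination and R848, whereas Slfn9 stood apart with R848 alone, at 10.7 and 13.0 CPM.

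To compare genes with each other, CPM was divided by the exon length in kb. On this scale of level per length, Slfn2 ranked first in every group, at 131 CPM per kb with vehicle and 904 with the combination, followed by Slfn5, at 36.5 and 174. Slfn9 ranked behind them with vehicle, at 19.4 CPM per kb, above Slfn8 at 12.7. With R848 this order turned, and Slfn8 was at 54.8 and Slfn9 last of the 7 at 1.98. Slfn4 was last with vehicle, at 1.28 CPM per kb.

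A gene was counted as changed where limma, run on log2 CPM as deposited, gave a difference of 2-fold or more and an adjusted p-value under 0.05. With polyU, 5 of the 7 members were higher than vehicle and 0 lower, where 3.21% of all genes tested were higher and 0.776% lower. With PNPi+dG/rG alone, 0 members changed, against 0.0668% of genes higher and 0.00835% lower. Without an adjustment, 1076 genes in that comparison had p under 0.05. With the combination, 6 were higher and 0 lower, against 8.12% and 14.3% of genes. With R848, 5 were higher and 1 lower, against 8.89% and 30.3%. The median log2 fold change of the members was 1.48, 0.095, 2.79 and 2.00 in these comparisons, beside 0.016, 0.018, -0.22 and -0.50 for all genes tested, and each treated group was compared with the same vehicle libraries.

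**Figure D2:**
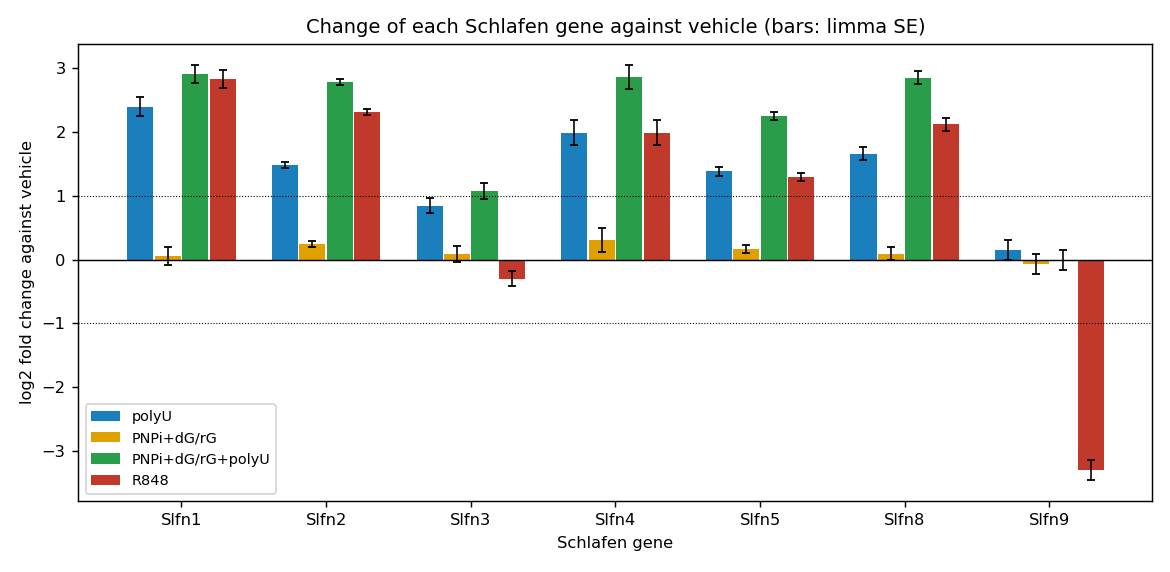
Log2 fold change of each Schlafen gene against vehicle for the 4 treated groups (colours), as estimated by limma, with its standard error as a whisker; dotted lines mark a 2-fold difference. Slfn9 with R848, at -3.29, is the only bar below the lower dotted line.

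Among the short members, Slfn2 was the most abundant and the most precisely measured. Slfn2 protein binds tRNAs and shields them from cleavage, and mice that lack its function lose T cells and monocytes under activation. Slfn2 (ENSMUSG00000072620, chr11:83065112-83070678) had 219 and 216 CPM with vehicle, 252 and 265 with PNPi+dG/rG, 583 and 634 with polyU, 1068 and 1096 with R848, and 1484 and 1526 with the combination. No 2 groups overlapped, and each step in this order had an adjusted p-value under 0.05. Against vehicle, the log2 fold change was 1.48 with polyU (standard error 0.044, limma adjusted p = 3.28e-12), 2.31 with R848 (adjusted p = 2.00e-16) and 2.79 with the combination (adjusted p = 1.16e-16). PNPi+dG/rG alone gave 0.25, with a limma adjusted p of 0.0155, which was below the 2-fold limit. This p-value passed 0.05 with plain eBayes, at 0.335, and without vehicle library 1, vehicle library 2 or PNPi+dG/rG library 2, at 0.0612, 0.0996 and 0.249.

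Slfn1, the founding member, whose protein slows thymocyte growth when overexpressed, was rare in these cells. Slfn1 (ENSMUSG00000078763, chr11:83116849-83122670) had 3.54 and 3.20 CPM with vehicle, or 63 and 57 reads, and 3.78 and 3.26 CPM with PNPi+dG/rG. It had 17.0 and 18.5 CPM with polyU, 21.8 and 26.4 with R848 and 22.3 and 28.8 with the combination. The libraries fell into a low and a high set, and the combination overlapped with R848. Its log2 fold change was the largest of the family with polyU and R848. With polyU its 95% interval, 2.09 to 2.71, overlapped with that of Slfn4, 1.58 to 2.41. With the combination the value of Slfn1 lay within the error of Slfn4, Slfn8 and Slfn2, at 2.87, 2.85 and 2.79. It was 2.40 with polyU (standard error 0.15, limma adjusted p = 4.74e-09), 2.83 with R848 (adjusted p = 3.57e-11) and 2.91 with the combination (adjusted p = 4.82e-11). The combination differed from R848 by 0.08 on the log2 scale, with a 95% interval of -0.23 to 0.39. Compared with polyU, Slfn1 was 0.51 higher with the combination (limma adjusted p = 0.00646), less than 2-fold, and without polyU library 1 or combination library 2 the adjusted p was 0.0524 or 0.111.

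The intermediate pair of close copies, Slfn4 and Slfn3, lay next to each other on the same strand and parted with R848. Slfn4 is a myeloid gene that rises when macrophages are activated. Slfn4 (ENSMUSG00000000204, chr11:83175186-83190216) had 6.06 and 4.10 CPM with vehicle, 7.35 and 5.16 with PNPi+dG/rG, 18.4 and 21.4 with polyU, 20.2 and 19.6 with R848 and 36.7 and 36.1 with the combination. PNPi+dG/rG overlapped with vehicle, R848 lay within the range of polyU, and the combination stood above all. The log2 fold change was 1.99 with polyU (standard error 0.19, limma adjusted p = 6.30e-06), 1.99 with R848 (adjusted p = 9.33e-07) and 2.87 with the combination (adjusted p = 5.12e-08). R848 and polyU differed by 4.7e-05 on the log2 scale, with a 95% interval of -0.41 to 0.41.

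Slfn3 (ENSMUSG00000018986, chr11:83191330-83215154) had 15.5 and 12.0 CPM with vehicle, 13.8 and 15.4 with PNPi+dG/rG, 25.9 and 23.5 with polyU and 29.4 and 28.3 with the combination, but 10.4 and 12.0 with R848. Vehicle and PNPi+dG/rG overlapped, polyU and the combination lay above them, and R848 lay at or below the lowest vehicle library. It was 1.08 higher than vehicle on the log2 scale with the combination (standard error 0.12, limma adjusted p = 1.09e-06). With polyU the difference was 0.85 (adjusted p = 5.07e-05), which stayed under 2-fold, and with R848 it was -0.30 (adjusted p = 0.0353). The direction with R848 depended on the scaling, since with each library centred on its median it was 0.30 (adjusted p = 0.0330), and the adjusted p reached 0.428 without vehicle library 1. The calls with polyU and the combination depended on 1 library, since the difference with polyU was 1.04 without vehicle library 1, which made it a change, and that with the combination was 0.89 without vehicle library 2, which ended it. Within a library, the ratio of Slfn4 to Slfn3 CPM was 0.341 to 0.390 with vehicle, 1.25 to 1.28 with the combination and 1.63 to 1.95 with R848.

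Of the long members, Slfn5 is an IFN-induced nuclear protein. Slfn5 (ENSMUSG00000054404, chr11:82951349-82964840) had 247 and 215 CPM with vehicle, 258 and 258 with PNPi+dG/rG, 594 and 608 with polyU, 531 and 602 with R848 and 1103 and 1100 with the combination. PolyU and R848 overlapped, and the combination was above both. The log2 fold change was 1.38 with polyU (standard error 0.065, limma adjusted p = 4.58e-09), 1.30 with R848 (adjusted p = 5.54e-10) and 2.26 with the combination (adjusted p = 3.17e-12). R848 and polyU differed by -0.09, with a 95% interval of -0.23 to 0.05.

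The other long members were the close copies Slfn8 and Slfn9, both on the minus strand. Slfn8 (ENSMUSG00000035208, chr11:83002158-83020810) had 58.8 and 44.8 CPM with vehicle and 53.8 and 56.0 with PNPi+dG/rG. It had 159 and 166 CPM with polyU, 217 and 231 with R848 and 369 and 372 with the combination. These 3 groups did not overlap with each other or with vehicle. The log2 fold change was 1.66 with polyU (standard error 0.10, limma adjusted p = 1.34e-06), 2.13 with R848 (adjusted p = 2.34e-08) and 2.85 with the combination (adjusted p = 4.00e-09).

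Slfn9 (ENSMUSG00000069793, chr11:82978390-82991830) had 125 and 106 CPM with vehicle, 103 and 118 with PNPi+dG/rG, 146 and 112 with polyU and 120 and 110 with the combination. These 4 groups overlapped. With R848 it had 10.7 and 13.0 CPM, or 201 and 423 reads, and both libraries lay far below all others. The log2 fold change with R848 was -3.29 (standard error 0.16, limma adjusted p = 7.31e-07), a 9.81-fold lower level, while with the combination it was -0.0011 with a 95% interval of -0.39 to 0.38. Lower genes were common with R848, as given above, and Slfn9 ranked 621st from the bottom of 11978, at the 5.19th percentile. The median gene was at -0.50 with R848, so relative to it Slfn9 was lower by less. Over the alternatives tried, its value with R848 lay between -3.43 and -2.70. Within a library, the ratio of Slfn8 to Slfn9 CPM was 0.422 to 0.470 with vehicle, 3.07 to 3.38 with the combination and 17.8 to 20.4 with R848.

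**Figure D3:**
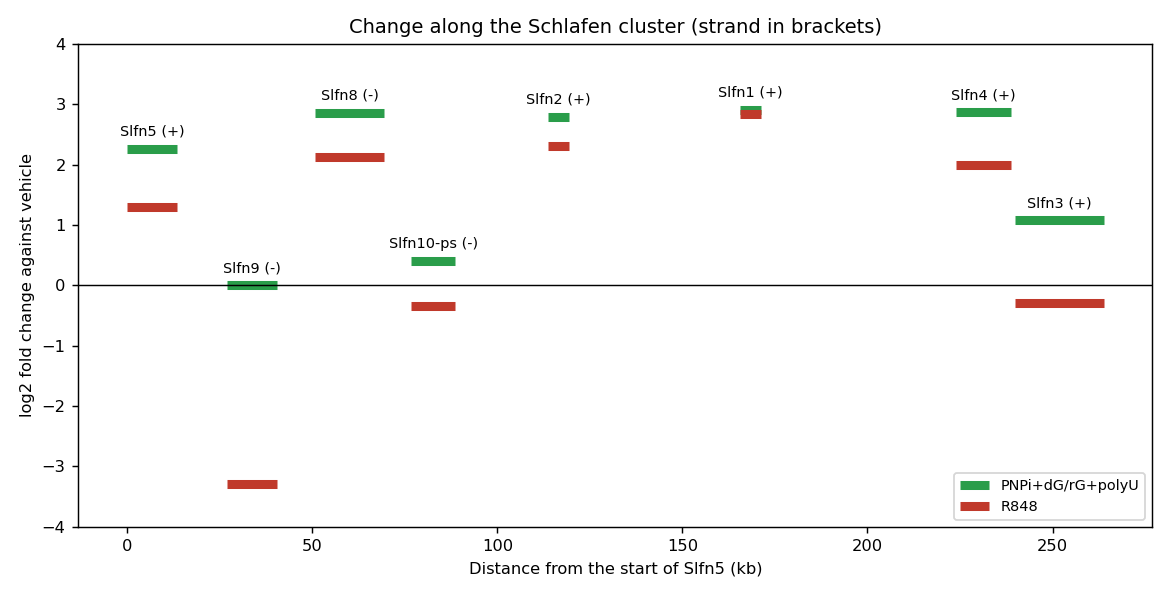
Log2 fold change against vehicle along the Schlafen cluster, with distance from the start of Slfn5 in kb on the horizontal axis; each gene is a horizontal bar from its start to its end, in green for the combination and red for R848. Slfn9, at -3.29 with R848, lies between Slfn5 at 1.30 and Slfn8 at 2.13.

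With R848, members that rose lay next to members that did not. Slfn9 lay between Slfn5 and Slfn8, and Slfn3 was next to Slfn4. With the combination Slfn3 rose as well, and Slfn9 was the only member that did not. An effect of position in the cluster was not tested. The pseudogene Slfn10-ps, which lies between Slfn8 and Slfn2, had 35.1 and 37.4 CPM with vehicle, 47.0 and 48.7 with polyU, 47.8 and 47.8 with the combination and 27.9 and 29.5 with R848. Its log2 fold changes were 0.40, 0.40 and -0.34, none reaching 2-fold, where the median gene was at -0.50 with R848. Slfn14, a tRNA- and rRNA-cleaving member with roles in red cells and platelets, had 0 reads in all 10 libraries, and Slfnl1, a relative on another chromosome, had 0 or 1.

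The annotation placed 22 genes in the cluster, and 12 of the 15 that are no members had at most 3 reads in every library. The antisense genes Slfn5os and Gm20234, which overlap Slfn5 and Slfn2, had at most 2 and 3 reads. Another, 1190001M18Rik, had at most 7 reads, and Gm11425, a processed pseudogene, had log2 fold changes of 0.07 to 0.74 against vehicle, none of them past the test. At the borders, Nle1, a ribosome assembly factor, had log2 fold changes of -0.31 with the combination and -0.76 with R848, and Unc45b, a muscle chaperone gene, had at most 2 reads.

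Close copies share reads that cannot be placed. Of the 50-base stretches in the annotated transcripts of a member, the length of the reads, the share also found in another gene was 0.606% for Slfn1, 4.27% for Slfn2, 3.37% for Slfn5, 10.8% for Slfn4, 11.5% for Slfn9, 14.6% for Slfn8 and 15.6% for Slfn3. Slfn8 shared 389 such stretches with Slfn9 and 423 with Slfn10-ps, and Slfn3 shared 252 with Slfn4. How the authors counted such reads is not given in the sources used here, so the values of Slfn3, Slfn4, Slfn8, Slfn9 and Slfn10-ps are uncertain to that extent.

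Whether PNPi+dG/rG added to the response to polyU was asked by comparing the combination with polyU alone. No group received the inhibitor without the nucleosides or the nucleosides without the inhibitor, so their effects cannot be told apart. Of the 7 members, 2 were higher and 0 lower, where 5.29% of genes were higher and 10.2% lower. They were Slfn2, by 1.31 (standard error 0.044, limma adjusted p = 8.89e-13), and Slfn8, by 1.19 (standard error 0.10, limma adjusted p = 5.33e-06). Slfn4 and Slfn5 were both 0.87 higher (limma adjusted p = 0.00173 and 9.99e-08), just under 2-fold. Slfn3 was 0.23 higher, with a 95% interval of -0.03 to 0.49, and Slfn9 was at -0.15, with an interval of -0.54 to 0.23. The median of all genes in this comparison was -0.24, and with each library centred on its median Slfn4 and Slfn5 were both 1.13 higher and the count became 4.

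The interaction asks whether PNPi+dG/rG acted differently in the presence and in the absence of polyU. It was positive and at least 2-fold for 2 members, against 4.55% of genes, and negative for 0, against 8.87%. The value was 1.06 for Slfn2 (standard error 0.063, limma adjusted p = 1.72e-09) and 1.09 for Slfn8 (standard error 0.15, limma adjusted p = 0.000204). For Slfn5 it was 0.71 (limma adjusted p = 3.84e-05), short of 2-fold. Those of Slfn2 and Slfn8 fell to 0.998 and 0.90 when polyU library 1 and vehicle library 1 were left out, respectively, which ended each call by a small margin.

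The combination was then compared with R848 directly. Of the 7 members, 2 were higher with the combination and 0 lower, against 16.9% and 3.86% of genes. Slfn9 was higher by 3.29 on the log2 scale (standard error 0.16, limma adjusted p = 1.35e-06) and Slfn3 by 1.37 (standard error 0.12, limma adjusted p = 7.75e-08). Slfn5, Slfn4, Slfn8 and Slfn2 were higher by 0.96, 0.87, 0.73 and 0.48, each with an adjusted p-value under 0.05 and less than 2-fold. The median of all genes was 0.31 higher, and with libraries centred Slfn3 was at 0.99, which left 1 member changed, and Slfn2 was at 0.09 (adjusted p = 0.0941). Without R848 library 2, Slfn5 was at 1.05 and counted as changed.

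**Figure D4:**
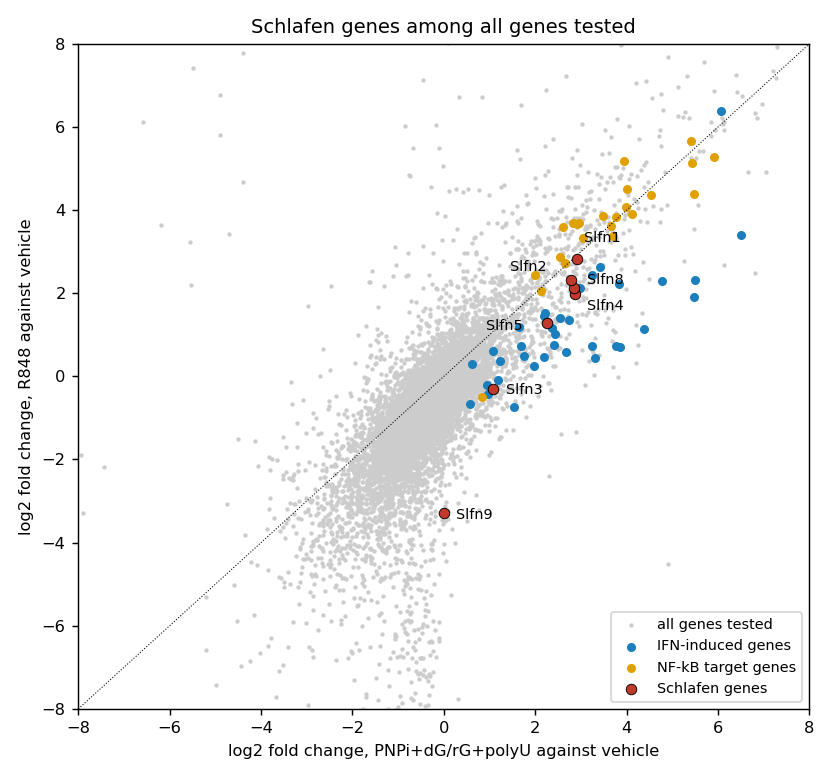
Log2 fold change against vehicle with the combination (horizontal) and R848 (vertical) for the 11978 genes tested (grey), the IFN-induced list (blue), the NF-kB target list (orange) and the Schlafen genes (red); 248 genes lie outside the axes. Slfn1 lies close to the dotted line of equal change, whereas Slfn9 lies at -0.0011 and -3.29.

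The members were set beside 35 IFN-induced genes and 30 NF-kB target genes, lists that contain no Schlafen gene. Of the IFN-induced genes, 27 were higher with polyU, 31 with the combination and 17 with R848, with median log2 fold changes of 1.72, 2.44 and 0.76, and none were lower. Of the NF-kB targets, 19, 29 and 29 were higher, with medians of 1.34, 3.97 and 4.00, and none were lower. The medians of the 7 Schlafen genes given above, 1.48, 2.79 and 2.00, lay between those of the lists in each of these comparisons. Slfn1 and Slfn2 with R848, at 2.83 and 2.31, stood beside 1.91 for Mx1, an IFN-induced antiviral GTPase gene, 2.23 for Isg15, 2.30 for Ifit1 and 3.40 for Cxcl10. With the combination these 4 genes were at 5.48, 3.84, 4.77 and 6.51.

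Of 10 genes that make, bind or relay type I IFN, 2 were higher with polyU, 3 with the combination and 1, Ifnar2, with R848, where 3.21%, 8.12% and 8.89% of all genes were higher. Ifnb1, the IFN-β ligand, had 1 and 0 reads with vehicle, 8 and 3 with polyU, 19 and 15 with the combination and 0 and 3 with R848. The 3-read limit of detection was not passed in either R848 library, nor in 1 of the 2 polyU libraries. Tlr7 itself had 166 and 142 CPM with vehicle and 205 and 214 with R848, a log2 difference of 0.45 (limma adjusted p = 3.97e-05). With PNPi+dG/rG it was lower, at 113 and 123 CPM, a log2 difference of -0.38 (limma adjusted p = 0.0257). Neither difference reached 2-fold.

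Because Schlafen proteins act on tRNA, 14 genes for tRNA cleavage and repair were examined. None were higher in any comparison with vehicle. Of all genes, 3.21% were higher with polyU, 0.0668% with PNPi+dG/rG, 8.12% with the combination and 8.89% with R848. With the combination 1 of the 14 was lower and with R848 5 were lower, where 14.3% and 30.3% of all genes were lower. For 14 genes these counts are near that background. Ang, which encodes the tRNA-cleaving ribonuclease angiogenin, had 7.58 and 9.16 CPM with vehicle and 1.81 and 1.59 with R848.

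The genes most like each member were found by the Euclidean distance over the 4 log2 fold changes against vehicle, among the 8459 genes whose mean was 10 CPM or more. This is a description of 5 group means that share their vehicle. The shortest distances between members were 0.309 between Slfn2 and Slfn8, 0.414 between Slfn4 and Slfn8 and 0.611 between Slfn2 and Slfn4. The genes nearest to Slfn2, Slfn4 and Slfn8 included Tnfrsf14, a TNF receptor family member, Nod1, a sensor of bacterial peptidoglycan, Parp14, an IFN-induced ADP-ribosyltransferase, and Ifi203, of the IFN-induced HIN-200 family. Slfn5 was nearest to Mndal, also of the HIN-200 family, at 0.0872, then to Parp9 and Il15. Slfn1 was nearest to Pou2f2, Usp18 and Arl5c, with no gene within 0.5.

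Slfn3 was nearest to Tlr3, the receptor for dsRNA, at 0.166, which had log2 fold changes of 0.89 with polyU, 1.17 with the combination and -0.18 with R848, and then to Ifi207 and Rpl26. Slfn9 was nearest to Slc43a3, a purine nucleobase transporter gene, at 0.165, followed by Pkmyt1, a kinase that holds CDK1 inactive, and Smc2, a condensin subunit. Slc43a3 went from 35.2 CPM with vehicle to 34.3 with the combination and 3.24 with R848, Pkmyt1 from 42.6 to 40.3 and 4.34, and Smc2 from 161 to 133 and 16.5. Within a distance of 1 there were 48 genes around Slfn9 and 0 of them were on the IFN-induced list, which makes up 0.402% of the 8459 genes, so a count of 0 is near that background. The other members had 15 genes within this distance with 2 on the list for Slfn1, 60 with 2 for Slfn2, 570 with 8 for Slfn3, 37 with 4 for Slfn4, 78 with 11 for Slfn5 and 48 with 5 for Slfn8. The distance from Slfn9 to its close copy Slfn8 was 6.31, and from Slfn3 to Slfn4 3.13.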

How the data were processed

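RNA-Seq of BMDMs was analysed in 10 libraries, 2 for each of 5 groups taken from the sample labels. The authors deposited 1 table of CPM, reads on genes brought to one common library size, and each value carries an offset of 0.0001. Per the submitters' notes and methods, reads of 50 bases were demultiplexed with bcl2fastq 2.19.1.403, aligned with STAR 2.27a and counted on Ensembl 97 genes of GRCm38. The library kit keeps strand, but the strand setting of the counting, and its rule for reads that fit several genes, are not given in the sources used here. CPM is relative, so a few strongly induced genes lower all other values in a library.

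Depth was recovered from the step between low values, of which 100% were whole multiples (tolerance of 0.1 reads). Floors of 3 reads cover counting error only, and the 95% intervals come from limma's spread between libraries. No count model was run on the recovered reads, and all tests used the deposited CPM. Log2 of the deposited CPM was fitted with limma 3.58.1 in R 4.3.3 (trend and robust eBayes with statmod 1.5.0) over all 10 libraries and 5 group means. Testing covered the 11978 genes that reached 1 CPM in 2 or more libraries, with Benjamini-Hochberg adjustment within each comparison. Folds are differences of mean log2 values, which include the offset. In simulated data, changes well above the 2-fold limit were planted in 200 genes with a mean of 10 CPM or more. Of these, 200 were recovered, with 6 of the unchanged among 11637 genes called. The spread between simulated libraries was set and not taken from these data. This check therefore does not cover changes near 2-fold or genes with a larger spread. Gene positions, exon lengths and shared 50-base stretches came from GENCODE M21 and upstream sequences from RefSeq. Identity is from global alignments with free end gaps. Proteins were not compared here.

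The members, gene lists and naming rule were chosen with earlier results of these data known. Named genes are all members, the other Schlafen loci, genes within or beside the cluster, the 3 genes nearest each member, and reference or list genes; Cd28, Col1a1, Col1a2, Col3a1, Pdgfrb, Tlr7 and Ang were named after their values were seen. Alternatives were pseudocounts of 0.1 and 1, other filters, centred libraries, plain eBayes, a fit of the compared groups alone, a replicate block, and each library left out. Some genes are not reported here.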

Additional observations from a re-analysis of the deposited data

Results flagged for a closer look

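For 3 Schlafen genes the effect of PNPi+dG/rG differed with and without polyU, by the interaction term of limma. The difference between these effects was 1.06 on the log2 scale for Slfn2 (adjusted p = 1.72e-09), 0.71 for Slfn5 (adjusted p = 3.84e-05) and 1.09 for Slfn8 (adjusted p = 0.000204). Before adjustment, 6817 of 11978 genes had a limma p under 0.05 for this interaction, so such a difference was common. That limit is looser than the adjusted limit which the 3 genes passed. Slfn1 also passed the looser limit, while Slfn3, Slfn4 and Slfn9 did not. The share of all genes under the adjusted limit alone was not counted, so the 3 genes have no matching background. With the 2-fold limit added, 2 members were positive and 0 negative, against 4.55% and 8.87% of genes. In Slfn2, Slfn5 and Slfn8 both libraries with PNPi+dG/rG+polyU were above both with polyU. The same held for Slfn1, Slfn3 and Slfn4, though not for Slfn9, so it does not set the 3 genes apart. They were also flagged from these same values. How many of all genes did so was not counted. With 2 libraries per group, no library could be tested for standing apart from its group.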

How the results depend on the processing

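Over 18 alternatives, 874 of 882 single-gene values kept their call (adjusted p under 0.05 and at least 2-fold), 245 of 252 counts of members were unchanged, and the other 7 moved by 1 or 2 members. No called value changed sign, but 21 uncalled estimates did, 1 of them, Slfn3 with R848, with an adjusted p under 0.05 on both sides, and in 22 values the adjusted p crossed 0.05. With each library centred on its median, the members higher with PNPi+dG/rG+polyU went from 2 to 4 against polyU and from 2 to 1 against R848. When a library was left out, the members higher were 6 with polyU in place of 5 (without vehicle replicate 1), 5 with PNPi+dG/rG+polyU in place of 6 (without vehicle replicate 2) and 3 against R848 in place of 2 (without R848 replicate 2), and the count of members with a positive interaction lay between 1 and 2, with 1 without vehicle replicate 1 and 1 without polyU replicate 1. The 8 changed calls concerned Slfn2, Slfn3, Slfn4, Slfn5 and Slfn8 where they lay close to 2-fold, as given with their values in the report. Leaving out a library leaves 1 in its group, which is then assumed to vary like the other groups. Deviations from the group means were mostly not shared by libraries of the same replicate number (r across genes from -0.286 to 0.109, over 0.1 in 1 of 10 pairs). For PNPi+dG/rG the r was -0.286 with vehicle and -0.273 with polyU. This check cannot tell whether samples were paired under other numbers. With the replicate block the count of members higher with polyU was 5 and with R848 5, as without it, and no call changed. Genes with few reads, such as Ifnb1 and Slfn1 with vehicle, are limited by depth.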
